A study of Mus musculus with 2 samples.

Results

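The genes described here mark tissue macrophages and their complement product C1q. They are Cd68, Csf1r, Adgre1, Cx3cr1, C1qa, C1qb, C1qc, Cd163, Mrc1 and Itgax, 10 of the 43346 genes in the deposited tables, and they were taken by gene symbol. The samples are a single group of 2 polyA RNA-seq libraries, replicate 1 and replicate 2. Per the labels each comes from large intestine of C57BL/6J mice, an inbred strain, aged 8 weeks, with littermates of both sexes pooled and no treatment named, and both biosamples sit under 1 donor record. With 1 group there is no comparison between conditions, so levels and the distance between the 2 libraries are given, and no p-value. Where values come in pairs, replicate 1 is given first and replicate 2 second. Errors are the SD over both libraries, and intervals on counts cover counting error only.

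Macrophages of the gut wall lie under the epithelium, around the crypts and in the muscle layer, where they take up bacteria and dying cells. Their survival depends on the CSF1 receptor, encoded by Csf1r, and in the adult intestine most are renewed from blood monocytes. C1q is the recognition unit of the classical complement pathway. Each C1q molecule holds A, B and C chains in equal numbers, and in most tissues macrophages, rather than liver, are its main source. Once C1q binds an antibody or a surface, it activates the proteases C1r and C1s, which cleave C4 and C2 and so lead to cleavage of C3.

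The libraries go against their labels in several ways that bear on every value below. Of 8 markers typical of large intestine none reached 1 TPM (a gene's share of all transcripts, corrected for transcript length) in both libraries, with Car1 at 0.23 and 0.27 TPM, whereas the 8 small intestine markers summed to 12689 and 22378 TPM. Expected counts, the estimated numbers of reads, came to 2741 and 3 for Y-linked genes and to 17 and 12563 for Xist, which differs from a pool of both sexes in each. Sequencing depth was 50189619 and 58233142 expected counts. Each library's own value is therefore given for every gene.

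The 3 C1q genes lie side by side on chromosome 4 within 18675 nt, in the order C1qb, C1qc and C1qa, all on the minus strand (136880129 to 136898803, mm10). Upstream sequence is shown for C1qb and C1qc, neighbours whose levels are compared below. RefSeq promoter entries on build GRCm38.p6 were used for 7 of the 10 genes (C1qb, C1qc, Cd68, Cx3cr1, Cd163, Mrc1 and Itgax), each of 300 bases, from 250 before to 50 after the start. They were searched on both strands for 2 motifs. One was GAGGAA, which reads TTCCTC on the opposite strand and is a core bound by the myeloid factor PU.1. The other was TGCTGA, which reads TCAGCA on the opposite strand and is part of the site of Maf factors. The 2 motifs share no letters where they matched. Capitals mark the matches, and the printed stretches end before the annotated start of each gene, at chr4:136886201-136886450 for C1qb and chr4:136893066-136893164 for C1qc, minus strand, 5′ to 3′.

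C1qb: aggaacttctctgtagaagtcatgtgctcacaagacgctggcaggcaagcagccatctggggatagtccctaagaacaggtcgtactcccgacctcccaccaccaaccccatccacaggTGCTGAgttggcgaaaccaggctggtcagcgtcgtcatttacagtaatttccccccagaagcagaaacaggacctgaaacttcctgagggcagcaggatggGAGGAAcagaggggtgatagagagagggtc
C1qc: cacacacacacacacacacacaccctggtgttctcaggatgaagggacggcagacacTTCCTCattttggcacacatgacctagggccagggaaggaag

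The C1qb stretch held both motifs, TGCTGA beginning 131 bases and GAGGAA 30 bases before the RefSeq start. In C1qc the GAGGAA motif lay on the opposite strand, 193 bases before the RefSeq start. These distances depend on the start used, since the gene positions given below start at 136886187 for C1qb and 136893065 for C1qc. Counted from those, the C1qb GAGGAA match (136886225 to 136886230) lies farther away than 30 bases. The C1qc match (136893102 to 136893107) lies nearer than 193 bases, so the distances in both genes are not compared. Of the 7 windows, 4 held GAGGAA (C1qb, C1qc, Cd68 and Mrc1) and 1 held TGCTGA. Among 32851 promoter windows of the same length, 28.3% held GAGGAA and 19.5% held TGCTGA, so these letters are common. A match describes the sequence and says nothing of binding in these samples.

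C1q transcripts made up most of the summed level of the 10 genes. The 3 genes summed to 272 and 244 TPM, which was 80.1% and 83.1% of the sum over all 10 genes (340 and 293 TPM, mean 317 ± 32.9, SD, n = 2). Of the 10 genes 9 were detected, meaning 1 TPM or more in both libraries, where 29.9% of all genes in the tables were. Only Cd163 was below that level. The members were chosen with earlier results of these data known, so their detection is not an independent contrast with all genes.

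C1qb, the B chain gene (ENSMUSG00000036905.8, 136880129 to 136886187), had the highest level, 105 and 92.0 TPM (mean 98.4 ± 9.12, SD, n = 2), from 4065 and 4648 expected counts. C1qc, the C chain gene (ENSMUSG00000036896.5, 136889804 to 136893065), was at 89.6 and 74.3 TPM (82.0 ± 10.8). C1qa, the A chain gene (ENSMUSG00000036887.5, 136895917 to 136898803), was at 77.8 and 77.6 TPM (77.7 ± 0.127), the pair closest in ratio among the 10 genes. C1qb led in both libraries, while C1qc lay above C1qa in replicate 1 and below it in replicate 2. In replicate 1 the counting intervals of C1qc and C1qa, 86.9 to 92.5 and 74.9 to 80.7 TPM, were apart. In replicate 2 these intervals, 72.1 to 76.6 and 75.1 to 80.1 TPM, overlapped. The reversal is therefore not separated from counting error. By expected counts, which are not corrected for length, C1qc (3929 and 4244) lay above C1qa (2849 and 3706) in both libraries. By mean TPM C1qb ranked 1226, C1qc 1445 and C1qa 1528 among the 12949 detected genes.

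The subunit transcripts were present at similar but not equal levels. C1qb took 38.1% ± 0.57 of the summed TPM of the trio, C1qc 31.7% ± 1.74 and C1qa 30.2% ± 2.30 (SD, n = 2). The ratio of C1qb to C1qa was 1.35 in replicate 1 and 1.19 in replicate 2. These are ratios of transcript levels on the per-length TPM scale, and no protein was measured.

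Csf1r, the receptor for CSF1 and IL-34 (ENSMUSG00000024621.11, chromosome 18, 61100598 to 61132149), was the highest of the 7 genes outside the trio, at 26.7 and 17.6 TPM (22.1 ± 6.43). Cd68, a glycoprotein of late endosomes and lysosomes (ENSMUSG00000018774.9, chromosome 11, 69664213 to 69666153), followed at 15.5 and 16.4 TPM. Csf1r was clearly above Cd68 in replicate 1, whereas in replicate 2 their 95% counting intervals, 17.1 to 18.1 and 15.2 to 17.6 TPM, overlapped. The trio summed to 10.2 times the Csf1r level in replicate 1 and 13.9 times in replicate 2.

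Cx3cr1, the fractalkine receptor of monocytes and gut macrophages (ENSMUSG00000052336.6, chromosome 9, 119901616 to 120069879), was at 8.59 and 5.03 TPM. Itgax, which encodes the integrin CD11c of dendritic cells and many gut macrophages (ENSMUSG00000030789.8, chromosome 7, 128129547 to 128150657), was at 7.39 and 4.53 TPM. Adgre1, the gene of the F4/80 antigen (ENSMUSG00000004730.10, chromosome 17, 57358691 to 57483527), was at 7.25 and 4.35 TPM. These 3 genes kept that order in both libraries, but the steps between them were smaller than the distance between the libraries, so their order is not separated from that spread. All 3 were higher in replicate 1.

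The remaining members, Mrc1 and Cd163, were low. Mrc1, the mannose receptor CD206 (ENSMUSG00000026712.3, chromosome 2, 14229392 to 14332057), was at 1.61 and 1.24 TPM, from 316 and 304 expected counts. Cd163, the receptor for haptoglobin bound to haemoglobin (ENSMUSG00000008845.5, chromosome 6, 124304656 to 124330527), was at 0.53 and 0.35 TPM, from 98 and 85 expected counts with counting intervals of 79.6 to 119 and 67.9 to 105. Mrc1 thus lay just above the level that counts as detected, and Cd163 below it.

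**Figure D1:**
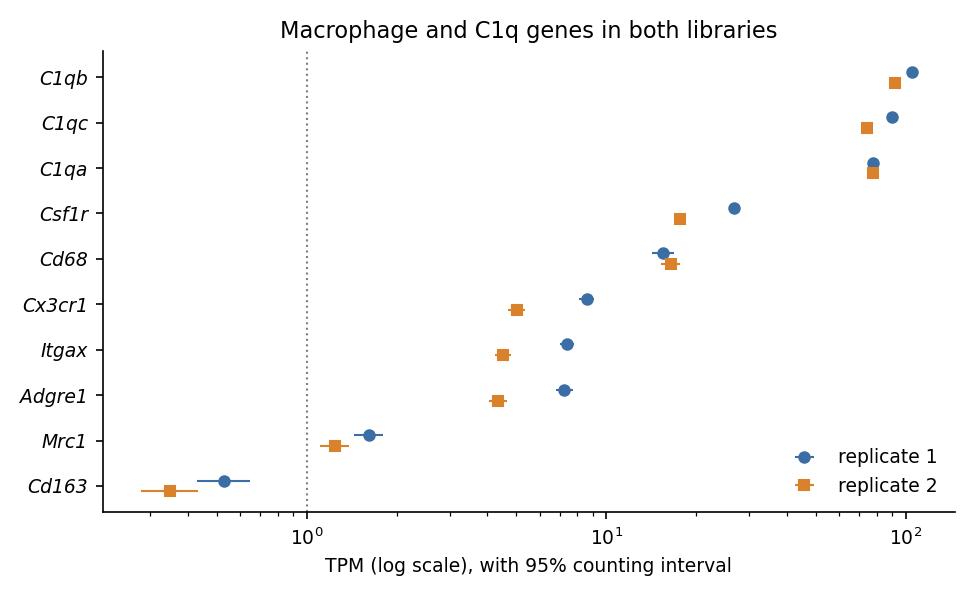
TPM of the 10 genes (horizontal log axis) in replicate 1 (circles) and replicate 2 (squares), with bars for the 95% counting interval and a dotted line at 1 TPM. The C1q genes lie between 74.3 and 105 TPM, and Cd163 lies below 1 TPM in both libraries.

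Other genes of macrophages were present at a wide range of levels. Of 30 further macrophage genes 26 were detected, and 2 stayed under 1 TPM throughout. The list was led by Apoe, a lipid carrier, at 494 and 321 TPM, Lyz2, the macrophage lysozyme, at 231 and 247 TPM, and Laptm5, a lysosomal protein of blood cells, at 91.6 and 93.3 TPM. Apoe is made by other cells too, and Lyz2 shares sequence with Lyz1, which was at 4597 and 6826 TPM, so the Lyz2 value is uncertain. The macrophage markers Mertk, a receptor for dying cells, and Fcgr1, the high affinity IgG receptor, were at 11.4 and 5.30 TPM and at 2.33 and 2.13 TPM. Among 15 genes of long-lived tissue macrophages 10 were detected, among them Selenop, a selenium carrier also made by other cells, at 772 and 494 TPM, the ligand gene Gas6 at 45.9 and 65.0 TPM and the scavenger receptor gene Stab1 at 54.7 and 31.8 TPM. Timd4, a phosphatidylserine receptor used to mark long-lived gut macrophages, was at 1.13 and 0.84 TPM. Of the 15 genes 4 stayed under 1 TPM in both libraries, and the cell source of the transcripts of this list was not tested.

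Of the genes of neighbouring myeloid cells, 8 of 12 monocyte, 11 of 16 dendritic cell and 2 of 12 neutrophil genes were detected. Among monocyte genes, Ccr2, the chemokine receptor of blood monocytes, was at 1.66 and 0.84 TPM and Chil3 at 0.03 and 0.07 TPM. Ly6c2, which has a close paralog, was at 12.8 and 8.81 TPM. The summed level of that list, 2329 and 1870 TPM, came mainly from Plac8 at 1982 and 1742 TPM, so it is not read as a level of monocytes. The cell source of the Plac8 transcripts was not tested. Ace, a peptidase that enterocytes also carry, was at 242 and 57.9 TPM and the fibronectin gene Fn1 at 74.8 and 46.7 TPM. The dendritic cell markers Flt3 (0.97 and 0.69 TPM), Zbtb46 (1.32 and 1.31), Clec9a (0.75 and 0.33) and Xcr1 (0.48 and 0.24) were each under 1.5 TPM, beside Itgax at 7.39 and 4.53 TPM. Other genes of the same list lay near Itgax, namely Batf3 (5.64 and 5.33 TPM), Irf4 (5.92 and 3.34), Ccr7 (4.36 and 6.28) and Ccl22 (6.70 and 6.35), some of which lymphocytes also express. The highest genes of that list were Bst2 (96.4 and 92.5 TPM), Fscn1 (12.5 and 12.7) and Itgae (9.13 and 4.43), which T cells of the epithelium also express. Of 12 neutrophil genes 10 stayed under 1 TPM, Retnlg was at 6.05 and 4.16 TPM and Csf3r at 3.17 and 1.63 TPM, S100a8 had 7 and 1 expected counts, and Elane had 0 in both.

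**Figure D2:**
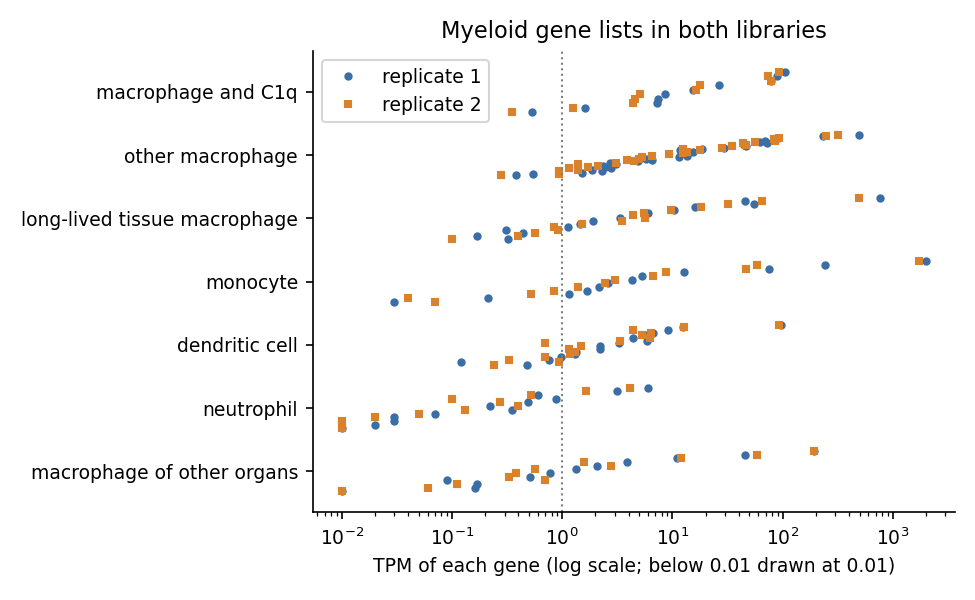
TPM of each gene (horizontal log axis, values below 0.01 drawn at 0.01) in 7 myeloid gene lists, replicate 1 as circles and replicate 2 as squares, with a dotted line at 1 TPM. Most neutrophil genes lie left of the line, while 26 of 30 further macrophage genes lie right of it in both libraries.

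Macrophage genes known from other organs were split. Clec4f, the Kupffer cell lectin, had 0 counts in both libraries, and Marco was at 0.16 and 0.06 TPM. Tmem119, a microglia marker also made by stromal cells, was at 10.9 and 11.8 TPM, and Acp5, an osteoclast phosphatase that enterocytes also express, at 193 TPM in each. Fabp4, shared with fat cells and capillaries, was at 45.4 and 58.7 TPM. Lymphatic endothelium can express Mrc1, and of its markers Prox1 (0.91 and 0.49 TPM) lay below Mrc1, and Flt4 (5.54 and 3.96) and Lyve1 (5.56 and 4.41) above it. The 7 lymphatic genes summed to 82.3 and 120 TPM, mostly from Ccl21a at 57.3 and 101 TPM. How much of Mrc1 came from either cell type was not tested.

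Ligands and partners of the receptors were all detected, 12 of 12 genes in both libraries. Csf1, the ligand of the CSF1 receptor, was at 7.16 and 6.56 TPM, and its second ligand Il34 at 14.98 and 10.32 TPM. Cx3cl1, which encodes fractalkine, the ligand of CX3CR1, was at 69.6 and 41.6 TPM, and Cx3cr1 itself at 8.59 and 5.03 TPM, both higher in replicate 1. Itgb2, the integrin beta chain that pairs with CD11c, was at 19.1 and 15.6 TPM, and Itgam, the alternative alpha chain CD11b, at 10.7 and 8.53 TPM. Tyrobp, a signalling adaptor of myeloid and NK cell receptors, was at 83.7 and 82.8 TPM, close to C1qa in both libraries. Calr and Lrp1, whose products act in the uptake of C1q-coated material, were at 304 and 331 TPM and at 94.2 and 96.8 TPM. Hp, the haptoglobin gene, was at 26.8 and 14.6 TPM.

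Of 12 transcription factor genes of macrophages 10 were detected. Spi1, which encodes PU.1, was at 24.8 and 22.1 TPM. Maf, a transcription factor of mature macrophages, was at 32.1 and 15.4 TPM and so at least 2-fold apart by TPM (log2 ratio -1.01). Id3, Nr1h3 and Irf8 had the highest levels of the list, 200 and 199, 82.4 and 57.5, and 71.1 and 61.4 TPM, and each is also made outside macrophages.

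The remaining components of the complement system were uneven. The C1 proteases followed C1q at a lower level, C1s1 at 35.6 and 25.7 TPM and C1ra at 20.1 and 16.9 TPM. Their copies C1s2 and C1rb were near 0, and reads may be divided within each pair. The classical pathway substrates were present, C4b at 33.3 and 26.8 TPM, C2 at 21.3 and 25.2 TPM and C3 at 56.2 and 58.3 TPM. For the alternative pathway, factor D (Cfd, also an adipocyte gene) was at 91.5 and 130 TPM, factor B (Cfb) at 70.2 and 51.9 TPM and properdin (Cfp) at 11.1 TPM in each.

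Terminal components were low. Of the 7 genes of the membrane attack complex 2 were detected and 4 stayed under 1 TPM, with Hc, the C5 gene, at 3 expected counts in each library and C9 at 1 and 0. The highest were C8g at 2.21 and 1.72 TPM and C6 at 1.79 and 1.40 TPM. Regulators were higher: Serping1, the C1 inhibitor, was at 138 and 119 TPM, clusterin (Clu) at 92.0 and 178 TPM, and Cr1l, which encodes the membrane regulator Crry, at 44.8 and 46.9 TPM. Of the receptors, C5ar1 was at 6.41 and 4.92 TPM and C3ar1 at 3.06 and 1.67 TPM. Vsig4, the complement receptor of Kupffer cells, had 0 and 4 expected counts.

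**Figure D3:**
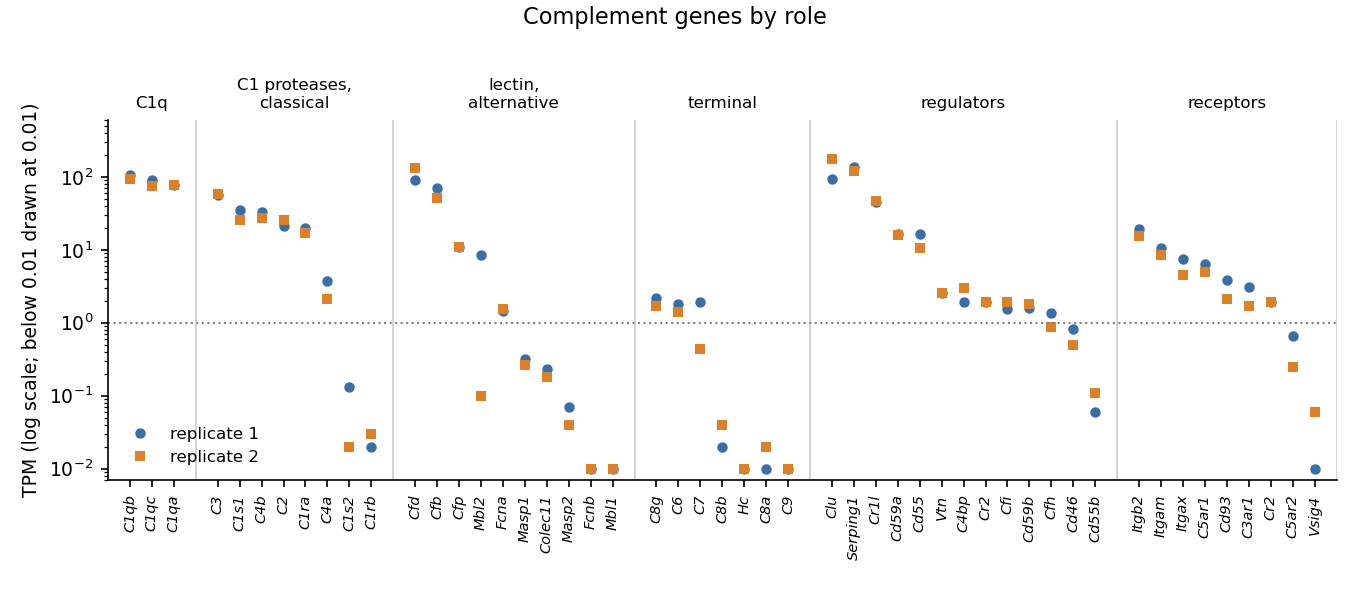
TPM (vertical log axis, values below 0.01 drawn at 0.01) of complement genes grouped by role, replicate 1 as circles and replicate 2 as squares, with a dotted line at 1 TPM. The C1q genes stand above C1s1 and C1ra, and most terminal components lie near or below 1 TPM.

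Mbl2, a mannose-binding lectin gene, was, among the complement genes with a mean of at least 1 TPM, the one outside the terminal components to differ more than 2-fold on the log2(TPM + 1) scale, at 8.42 TPM in replicate 1 (331 expected counts) and 0.10 TPM in replicate 2 (5 counts). Among the terminal components C7 did so, at 1.90 and 0.44 TPM. Of 16 genes related to C1q by their globular domain or collagen stretch, 9 were detected, led by C1qtnf12 at 114 and 63.1 TPM. Emilin1 followed at 35.8 and 39.9 TPM and Adipoq, the adiponectin gene of fat cells, at 22.6 and 21.6 TPM.

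Differences between the libraries were below 2-fold for these genes. No member of the 9 with a mean of at least 1 TPM was 2-fold apart on the log2(TPM + 1) scale, where 5.64% of 13512 genes were, so a count of 0 among 9 is near that background. The 95% counting intervals of the libraries were apart for 7 of the 9 members, against 65.4% of all genes, so most of these differences exceeded counting error, as they did for most genes. The intervals of C1qa and Cd68 overlapped. In bulk tissue fewer macrophages and less RNA per macrophage cannot be told apart. The libraries also differed in markers of position along the small intestine, Fabp6 at 477 and 5279 TPM and Lct at 152 and 9.94 TPM, and in the Y-linked and Xist counts given above. The part of these in the members' ratios was not tested.

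The log2 ratios (replicate 2 over replicate 1) of the 9 members ran from -0.67 to 0.07 on the log2(TPM + 1) scale. Csf1r (-0.57), Itgax (-0.60), Adgre1 (-0.625) and Cx3cr1 (-0.67) were lower in replicate 2, 3 of them by at least 1.5-fold, where 14.5% of all genes were lower by that much. The trio and Cd68 lay higher, C1qc at -0.27, C1qb at -0.19, C1qa at -0.003 and Cd68 at 0.07. Mrc1 was at -0.22 on this scale and at -0.38 without the pseudocount, and Cd163, too low to enter, at -0.60 without it. The median of the 9 members was -0.27, beside -0.14 over all genes. Relative to the median of all genes, C1qb and C1qc lay 0.04 and 0.12 below and C1qa 0.14 above it. Scaling the expected counts by TMM moved the median of all genes to 0.01 and C1qa to 0.17, above 0, while Csf1r, Itgax, Adgre1 and Cx3cr1 remained negative, between -0.41 and -0.53, none of them past 1.5-fold.

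Transcript length moved with these ratios. The 4 members near -0.6 have transcripts of 3237 to 4658 nt, and the trio and Cd68 have transcripts of 1010 to 1202 nt. Over all genes the median log2 ratio was 0.02 for the 2798 genes of 750 to 1500 nt, -0.18 for the 2608 genes of 2500 to 3500 nt, -0.28 for the 1966 genes of 3500 to 5000 nt and -0.40 for the 1283 longer ones. Against genes within 10% of their own length, the ratio of Cx3cr1 was lower by 0.46, that of Adgre1 by 0.42, that of Itgax by 0.33 and that of Csf1r by 0.27. Of those genes, 10.8% lay below Cx3cr1, 12.2% below Adgre1, 17.1% below Itgax and 21.4% below Csf1r. C1qb and C1qc lay 0.21 and 0.28 below genes of their length, a shift like that of Csf1r, and C1qa 0.05 below. Mrc1, at 4554 nt, lay 0.08 above genes of its length on this scale, where the pseudocount shrinks the ratio of so low a gene. Its ratio without the pseudocount, -0.38, lay below the -0.30 median of those genes, which was taken with it. The side on which Mrc1 lies is therefore not settled. So on this reference the gap between the trio and Csf1r narrowed, and the part of length in the ratios was not tested.

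**Figure D4:**
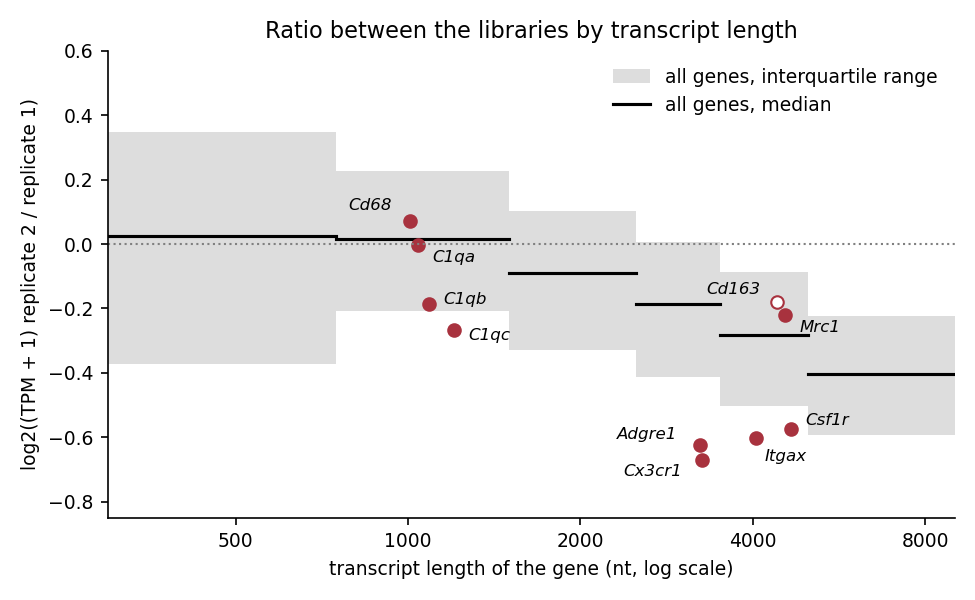
Log2 ratio of replicate 2 over replicate 1 (TPM + 1, vertical axis) against transcript length (horizontal log axis). Black lines are medians and grey bands the interquartile range of all genes in 6 length classes, the outer classes being open-ended, red points are the members, and the open point is Cd163, below a mean of 1 TPM. Csf1r, Itgax, Adgre1 and Cx3cr1 lie below the band of their class, C1qc just below the lower edge of its band and C1qb just above it.

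Other lists gave medians on either side of the members. The 28 further macrophage genes with a mean of at least 1 TPM had a median log2 ratio of -0.23, none of them 2-fold apart, and the 12 dendritic cell genes -0.08, with Siglech, a plasmacytoid dendritic cell gene, at 3.28 and 0.69 TPM. The other macrophage lists were spread, with medians of -0.36 for 10 transcription factor genes, -0.01 for 10 genes of long-lived tissue macrophages and 0.11 for 5 macrophage genes of other organs. Monocyte genes had -0.39, MHC class II genes -0.02 and B cell genes 0.57. Mast cell genes summed to 79.0 and 16.5 TPM, plasma cell genes to 55331 and 31117 TPM and adipocyte genes to 205 and 141 TPM. With 2 libraries the pattern of a gene is 1 ratio, and 2926 genes (21.7%) lay within 0.1 of the median of the C1q trio, so no gene is named as alike.

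The tables hold 18 transcripts of the 10 genes. In all 10 the leading transcript was protein-coding and the same in both libraries, and in 7 it held at least 90% of the gene in both, or in 5 by the deposited posterior means, an alternative estimate, without Adgre1 and Cd163. C1qa, C1qb and Itgax have a single transcript there, and C1qc-201 held 99.9% and 99.7% of C1qc. For Cd163 the tables list Cd163-201 at 100% and Cd163-202 at 0.

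Cx3cr1 differed most between the libraries in how its transcripts divided the gene. Cx3cr1-202 held 91.9% of the gene in replicate 1 and 71.7% in replicate 2, and the longer Cx3cr1-201 8.12% and 28.3%. By level, Cx3cr1-202 was at 7.89 and 3.61 TPM, while Cx3cr1-201 was at 0.70 and 1.42 TPM. Cx3cr1-202 was thus lower in replicate 2 than in replicate 1 and Cx3cr1-201 higher, with Cx3cr1-202 the leading transcript in both. Csf1r showed a smaller shift, Csf1r-202 holding 92.3% and 97.4%.

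Cd68 and Mrc1 carried transcripts with no annotated protein. Cd68-203, a processed transcript of 612 nt, held 33.0% of the Cd68 level in replicate 1 and 37.9% in replicate 2, so the protein-coding Cd68-201 was at 10.2 TPM in each library. Mrc1-202, a retained-intron transcript of 2069 nt, held 22.3% and 27.3% of Mrc1, from 29.6 and 36.2 expected counts, which left Mrc1-201 at 1.25 and 0.90 TPM. With these transcripts set aside, Mrc1 no longer reached 1 TPM in replicate 2. The shares are estimates over reads that overlapping transcripts have in common.

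**Figure D5:**
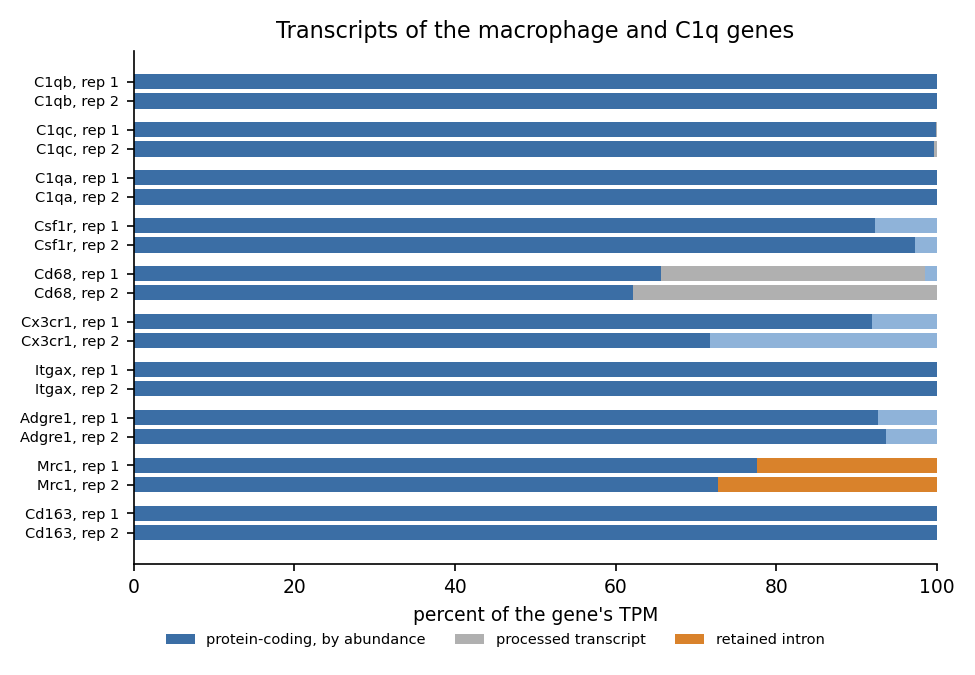
Percent of each gene's TPM held by its transcripts (horizontal axis) in both libraries, with protein-coding transcripts in blues by abundance, processed transcripts in grey and the retained-intron transcript in orange. Cd68 and Mrc1 carry grey or orange parts in both libraries, and the Cx3cr1 bar of replicate 2 has the larger light blue part.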

How the data were processed

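Per the notes deposited beside them, the authors' tables of genes and of transcripts rest on mm10 and GENCODE M4. No source used here names the aligner or quantifier. Expected counts, as deposited, are estimated reads per gene or transcript, at times with decimals. Levels are the deposited TPM, corrected for length, with spike-ins in the total, and the deposited FPKM served as an alternative. The percent of a gene's TPM per transcript is also deposited by the authors. Junction and contig lists on mm9 were not used here.

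Symbols, types and positions came from GENCODE M21 by gene identifier, without version, for 42462 of 43346 genes. Ratios are log2((TPM + 1) of replicate 2 / (TPM + 1) of replicate 1) over genes with a mean of at least 1 TPM, which understates the change of low genes. Detection means at least 1 TPM in both libraries, and counting intervals are exact Poisson, 95%. Total depth was 50189619 and 58233142 expected counts. The members and lists were chosen with earlier results of these data known. Of each list the 3 highest genes, those 2-fold apart and, in lists of other cells, those at 0 were to be named, with the cell type markers; lists of non-myeloid cells are given by sums or medians. Csf1, Il34, Cx3cl1, Hp, Spi1, Timd4, Marco, C1ra, C1rb, C1s2, C2, Hc, C9, C5ar1, C3ar1, Vsig4, Itgam, Batf3, Irf4, Ccr7, Ccl22 and MHC class II and B cell medians were picked after their values were seen. One gene that the rule would name is not reported here. The ratio step was tested on simulated data with known changes larger than those of the members. That simulation held no shift by transcript length, so it does not bear on the length trend. Expected counts, rounded, were scaled with TMM (edgeR 4.0.16) and size factors (DESeq2 1.42.0) in R 4.3.3. All else used Python 3.11.15 (pandas 2.3.3, scipy 1.17.1, numpy 2.4.6), with figures from matplotlib 3.10.9.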

Additional observations from a re-analysis of the deposited data

How the results depend on the processing

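No paired analysis was possible because the study has 1 group. The median log2 ratio of the members (-0.27) stayed negative under every alternative run and came to -0.12 with FPKM. Of the 9 members 2 lay above the median of all genes and 7 below it under each scaling, unit, pseudocount and filter. The 3 members at least 1.5-fold lower in replicate 2 became 0 with FPKM, with TMM, with DESeq2 size factors and relative to genes of like length, and 4 with a pseudocount of 0.1 or without mitochondrial genes and spike-ins. With FPKM, TMM and size factors the median of all genes moved too, from -0.145 to 0.001, 0.012 and 0.017. The comparison with genes of like length, and all alternatives of the 1.5-fold count, were chosen after seeing the data. At 1.5-fold in either direction 3 members were apart, against 0 at 2-fold. The share of all genes at 1.5-fold was computed only for the main setting and for lower values in replicate 2 (14.5%). The other 1.5-fold counts are therefore not read as results about the members. Without mitochondrial genes and spike-ins the C1q sum was 284 TPM, against 258. From expected counts the shares of C1qa, C1qb and C1qc were 27.9%, 37.2% and 35.0%, since counts are not corrected for length. A threshold of 5 TPM left 6 members detected. Leaving out either library returns only the value of the other, so it adds no check. These values were 293 to 340 TPM for the sum of the 10 genes and 244 to 272 TPM for the trio. For the subunit shares they were 28.6% to 31.8% for C1qa, 37.7% to 38.5% for C1qb and 30.5% to 32.9% for C1qc. In posterior means Cd163-201 held 87.7% to 87.8% of Cd163, and the leading transcript of Adgre1 a mean of 87.6%, against 93.2%. Cd163 and the minor transcripts rest on few counts, and with 2 libraries no difference has a replicate check.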
